A study of Mus musculus with 104 samples.

Results

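The median eminence was compared with the arcuate nucleus, the cell group that lies directly above it at the base of the hypothalamus. Both arrays titled for the median eminence and both titled for the arcuate nucleus were used, which makes 4 arrays. The series holds 52 regions of the nervous system and its glands, each with 2 arrays, and the spread between replicates was estimated over all 52. All groups were male Balb/c mice aged 7 to 8 weeks, an inbred strain, with no genetic change and no drug. The animals were bought at 5 weeks and adapted for 2 weeks to 12 h of light and 12 h of dark. The labels then allow sampling in that cycle or in constant darkness, without saying which applied to these arrays. The RNA of an array was a pool of punches made at 6 time points, every 4 h for 24 h, so no time of day can be read from it. Tissue was punched with a 0.5 mm needle from slices 0.5 mm thick, so a punch may hold cells of its neighbours. The design text speaks of independent sampling of each region on 2 occasions, but does not say how many animals entered a pool. A p-value here therefore measures the spread between such pools and arrays.

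The median eminence is a circumventricular organ, a place where the brain opens to the blood. Axons of hypothalamic neurons end there on fenestrated capillaries and release the hormones that govern the anterior pituitary. Its floor is lined by tanycytes, long glial cells that reach from the third ventricle to those capillaries, and beneath it lies the pars tuberalis, a thin sheet of pituitary tissue that responds to melatonin. The arcuate nucleus holds the cell bodies of neurons for feeding, growth hormone release, prolactin control and reproduction. The axons that end in the median eminence carry mainly peptide, while its messenger RNA stays mostly with the cell bodies.

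Defining genes were first used to place both punches among the 52 regions. They are no independent check of which punch is which. All values are on the log2 scale, so a difference of 1 is 2-fold, and array values are given for replicate 1 and then replicate 2. Npy, the appetite-stimulating neuropeptide Y, measured 13.66 and 13.63 in the median eminence and 13.40 and 13.47 in the arcuate nucleus, which ranked 1 and 2 of the 52 regions. The median over the 10 other hypothalamic regions was 9.01. Tbx3, a transcription factor of arcuate neurons, was at 10.28 and 10.17 against 10.32 and 10.28, with the arcuate nucleus ranked 1 and the median eminence 2. Dio2, the tanycyte enzyme that converts thyroxine into active thyroid hormone, was highest of all 52 regions in the median eminence and second in the arcuate nucleus. Defining genes of arcuate neurons and of tanycytes thus stood high in both punches, so the comparison is one of degree and not of presence against absence. In such tissue, fewer cells of a type and less RNA per cell cannot be told apart.

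The means of the median eminence and the arcuate nucleus correlated at r = 0.988 across genes, a description only, and for each of them the other was the nearest region. The median SD between the 2 arrays was 0.09 in both regions, in a range of 0.05 to 0.17 over the 52. Arrays give no counts, and their number, 2 per region, limits the precision. Control probe sets differed between the regions. The 9 hybridisation controls averaged 10.46 and 10.51 in the median eminence and 11.23 and 11.54 in the arcuate nucleus, against a median of 11.25 over 102 arrays. The 3' minus 5' difference of actin, a measure of RNA length, was 1.44 and 1.31 against 0.96 and 0.93, and that of Gapdh 0.24 and 0.19 against -0.08 and -0.18. The 5' probe set of 18S ribosomal RNA read 12.25 and 10.77 in the median eminence and 8.95 and 9.78 in the arcuate nucleus, against a median of 7.69. Both median eminence arrays thus lay apart from both arcuate arrays on each control, and values with the hybridisation controls or the 3' to 5' ratios as covariates are given below where they end a call of a gene described. The 18S probe set was not used as a covariate. The covariates are estimated from differences between arrays of the same region.

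Of 18193 genes, 112 were higher in the median eminence (0.616%) and 43 were lower (0.236%), where limma's adjusted p had to lie under 0.05 and the change had to reach 2-fold. In either direction and at any fold, 5361 genes (29.5%) had an unadjusted p under 0.05, the share against which such counts of list members are to be read. At any fold, 1546 genes (8.5%) were higher and 1456 (8%) lower at the same adjusted p, so the regions differed in many genes by little. Both median eminence arrays lay above both arcuate arrays in 5202 genes (28.6%) and below them in 4762 (26.2%). Single arrays moved the number of calls: leaving out median eminence replicate 1 gave 205 higher and 61 lower, and leaving out its replicate 2 gave 61 and 33. Leaving out arcuate replicate 1 gave 137 and 86, and its replicate 2 gave 109 and 28. In all 4 of these fits, 44 of the 112 and 16 of the 43 were called. With the 3' to 5' control ratios as covariates, 170 genes were higher and 43 lower, of which 89 and 17 were among the original calls.

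**Figure D1:**
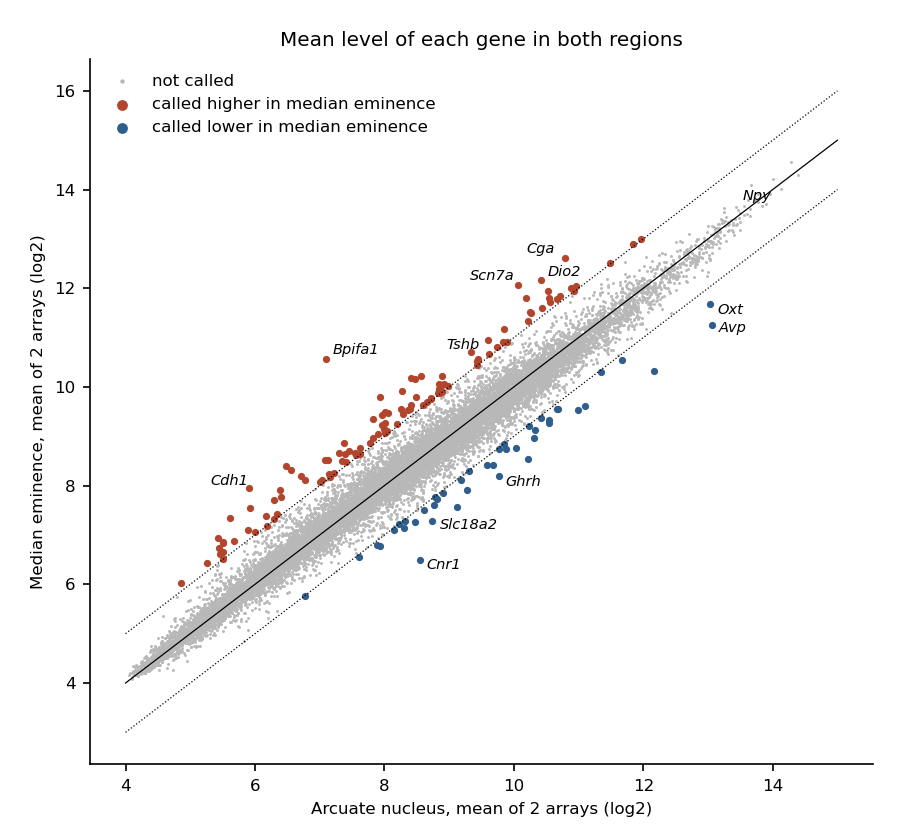
Each point is a gene, placed by its mean log2 level over the 2 arrays of the arcuate nucleus (horizontal) and of the median eminence (vertical); the solid line marks equal levels and the dotted lines a 2-fold difference. The 112 genes called higher and the 43 called lower lie outside the dotted lines at all levels, and Npy lies close to the line of equality.

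The tanycyte list had 17 measured members, of which 6 were called higher in the median eminence and 0 lower, with a median difference of 0.72 against 0.02 over all genes. Both median eminence arrays exceeded both arcuate arrays in 14 of the 17. Averaged over the list and set against the 52 regions, the median eminence ranked 1 and the arcuate nucleus 2. Scn7a, the sodium-sensing channel Nax of circumventricular organs, measured 11.87 and 12.26 in the median eminence and 10.18 and 9.96 in the arcuate nucleus, while the 10 other hypothalamic regions lay between 6.62 and 8.05. It was 3.98-fold higher, a difference of 1.99 ± 0.18 (SE), with an adjusted p of 4.94e-13 in limma. The 4 arrays of this gene fell into separate pairs, and the other regions lay below both.

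Col23a1, a membrane-bound collagen, gave 11.73 and 12.17 against 10.51 and 10.54, a difference of 1.43 ± 0.15 (adjusted p = 2.17e-10), and its 3 probe sets ran from 1.24 to 1.498. Lhx2, a LIM-homeodomain factor of tanycyte identity, gave 9.95 and 10.18 against 8.88 and 8.81 (1.22, adjusted p = 6.20e-06). Mest, an imprinted hydrolase gene, gave 11.00 and 11.66 against 10.22 and 10.22 (1.10), and its highest region was the pituitary, at 12.41. Its difference fell to 0.77 without median eminence replicate 2 and 0.86 with hybridisation controls as a covariate. For none of these genes did the arrays of the regions overlap. Trhde, the ectoenzyme that degrades thyrotropin-releasing hormone, was dimmer, at 6.57 and 7.11 against 5.39 and 5.63 (1.33, adjusted p = 7.97e-06). The arcuate value of Trhde was under 7.39, the median of all values, where a fold is uncertain in size.

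The other 11 tanycyte genes differed by less than 2-fold. Rax, the retinal homeobox factor that defines tanycytes, measured 6.69 and 6.81 in the median eminence against 6.27 and 6.54, with a median of 5.52 in the other hypothalamic regions; its difference of 0.35 had an adjusted p of 0.0394. Gpr50, a melatonin-receptor relative of tanycytes, measured 9.28 and 9.64 against 8.94 and 9.18, ranked 1 and 2 of 52, and differed by 0.40 (adjusted p = 0.0305). Adm, the vasodilator adrenomedullin, differed by 0.85 (adjusted p = 7.93e-11), or 1.09 averaged over its probe sets and 1.02 without median eminence replicate 1, and Vim, the intermediate filament vimentin, by 0.60 (adjusted p = 0.0235). Nes, encoding nestin, gave 9.52 and 9.25 against 9.53 and 8.98, and its arrays overlapped. Fgf10, a growth factor of tanycytes, was the only member with a negative difference, at -0.16, and missed the threshold with an adjusted p of 0.346. It was dim in both regions, with means of 6.73 and 6.89, under the median of all values.

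Dio2 itself measured 11.93 and 12.17 in the median eminence and 10.88 and 11.05 in the arcuate nucleus, against a median of 7.01 in the other hypothalamic regions. The difference was 1.09 ± 0.15, or 2.13-fold, with an adjusted p of 3.73e-07. The step lay near the 2-fold limit: it was 0.97 without median eminence replicate 2, 0.80 averaged over its 3 probe sets and 0.98 with hybridisation controls as a covariate. Among 8 measured genes of thyroid hormone handling, 2 were called higher, Dio2 and Trhde, and 0 lower, with a median of 0.52. Slco1c1, a thyroxine transporter, differed by 0.50 (adjusted p = 0.008) and Crym, a cytosolic binder of thyroid hormone, by 0.87 (adjusted p = 0.019). Crym passed 2-fold at 1.11 without median eminence replicate 1 and at 1.32 with the control ratios as covariates. Thrb, a thyroid hormone receptor, differed the other way, at 6.69 and 6.48 against 7.16 and 6.84 (-0.42, adjusted p = 0.0377), while Thra stood at 11.72 and 11.74 against 11.70 and 11.62.

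The ependyma list, for the ciliated lining of the ventricle, had 2 of 10 measured members called higher and 0 lower, with a median of 0.31. All 10 differences were positive. Averaged over the list and set against the 52 regions, the median eminence ranked 5 and the arcuate nucleus 8. The medial preoptic area was highest, at 2.10 above the mean of the regions, against 1.13 for the median eminence. Mia, which encodes a small secreted protein, measured 11.01 and 11.35 against 9.84 and 9.87, a difference of 1.33 (adjusted p = 1.95e-06). The highest region for Mia was the pituitary, at 11.39. Tmem212 measured 8.43 and 9.11 against 7.76 and 7.47 (1.15) and fell to 0.81 without median eminence replicate 2, with an adjusted p of 0.0536. Foxj1, the master regulator of motile cilia, gave 6.42 and 6.56 against 6.38 and 6.34, with an adjusted p of 0.539. Of 12 genes of neural progenitors and proliferation 0 were called in either direction, with a median of 0.05, and 8 had an unadjusted p under 0.05 in limma. Notch2, a Notch receptor, differed by 0.83 (adjusted p = 0.00248). It passed 2-fold at 1.06 without median eminence replicate 1, 1.16 with the control ratios and 1.29 with hybridisation controls as covariates. Its second probe set was at 0.13, and its probe sets averaged 0.48. Hes5, a Notch target, differed by -0.76 (adjusted p = 0.0017), so this list was mixed in sign.

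**Figure D2:**
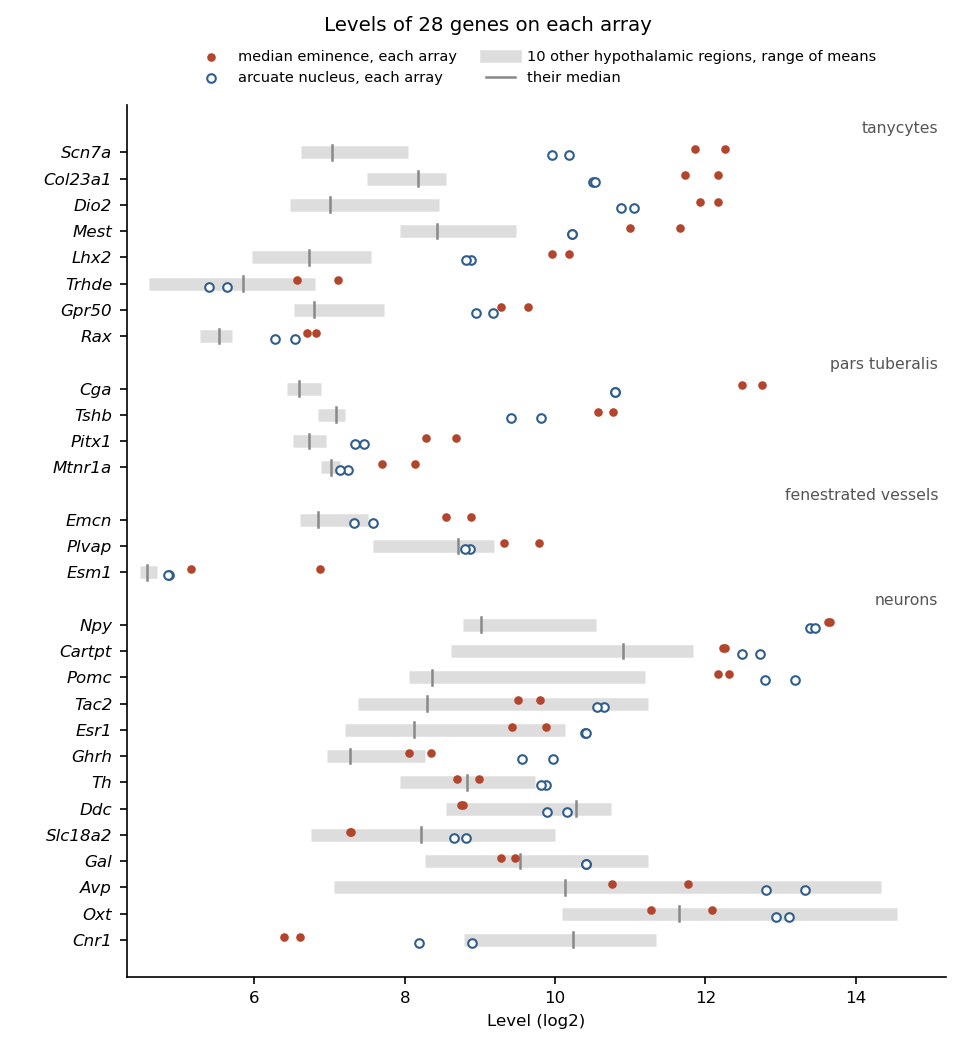
Log2 level (horizontal) of 28 genes on each array of the median eminence (filled) and arcuate nucleus (open), with a bar for the range and a tick for the median of the means of 10 other hypothalamic regions. Scn7a, Dio2 and Cga show 3 separate tiers with the median eminence highest, whereas Npy, Cartpt and Pomc lie above the range of the other regions in both punches.

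The pars tuberalis list had 3 of 8 measured members called higher and 0 lower, with a median of 0.68, and all 8 differences were positive. Cga, the alpha subunit shared by the glycoprotein hormones, measured 12.49 and 12.75 in the median eminence and 10.79 and 10.80 in the arcuate nucleus. It was 3.55-fold higher, a difference of 1.83 ± 0.14, with an adjusted p of 3.08e-15 in limma. The 10 other hypothalamic regions lay between 6.43 and 6.88 and the pituitary at 14.49, so the arcuate punch also stood far above the rest of the hypothalamus. Tshb, the beta subunit of thyrotropin, followed the same order: 10.57 and 10.78, then 9.81 and 9.41, against a median of 7.09 in the other hypothalamic regions and 13.03 in the pituitary. Its difference was 1.06 ± 0.14 (adjusted p = 1.22e-07), and it fell to 0.96 without median eminence replicate 2 and 0.86 without arcuate replicate 2.

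Pitx1, a pituitary homeobox factor, measured 8.28 and 8.68 against 7.46 and 7.34 (1.08, adjusted p = 5.30e-08; 0.88 without median eminence replicate 2). Without that array, 1 of the 3 calls of this list was left, that of Cga. Mtnr1a, the melatonin receptor through which the pars tuberalis reads night length, measured 7.70 and 8.14 against 7.25 and 7.14. The median eminence ranked 1 of 52 for Mtnr1a, and the difference of 0.72 (adjusted p = 5.14e-07) stayed under 2-fold. Lhx3, a LIM-homeodomain factor of pituitary precursors, differed by 0.63 (adjusted p = 9.14e-05). Eya3, a co-activator of Tshb, differed by 0.06 and missed the threshold.

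Of 8 measured genes of the anterior pituitary's other cells, 1 was called higher, Fshb, the follicle-stimulating hormone beta subunit, and 0 lower, with a median of 0.22. All 8 differences were positive, and both median eminence arrays exceeded both arcuate arrays in 6. Lhb, the luteinizing hormone beta subunit, measured 8.11 and 8.17 against 7.57 and 7.57 (0.57, adjusted p = 0.00147), under 2-fold. Fshb was dim, at 6.24 and 6.62 against 5.38 and 5.14 (1.17, adjusted p = 0.000353); it fell to 0.98 without median eminence replicate 2, and with the 3' to 5' control ratios as covariates it was 0.93, with an adjusted p of 0.114. Growth hormone (Gh) measured 7.92 and 7.65 against 7.39 and 7.41, and prolactin (Prl) 6.45 and 6.42 against 6.34 and 6.18, and neither difference passed the test. Over this list's members the arrays averaged 7.58 and 7.55 in the median eminence and 7.24 and 7.12 in the arcuate nucleus. The pars tuberalis list averaged 9.13 and 9.26 against 8.53 and 8.32, and a difference between the lists was not tested.

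The upstream sequences of 4 genes of these results are shown, whose products are the hormone subunits, the thyroid hormone enzyme and the dopamine enzyme described here. They are the 250 bases before each gene's annotated start, from RefSeq on GRCm38.p6, written 5' to 3' in the direction of the gene. They lie at chr4:34893529-34893778 on the plus strand, chr3:102782715-102782964 on the minus strand, chr12:90739039-90739288 on the minus strand and chr7:142899996-142900245 on the minus strand. Capitals mark 3 short motifs that were searched on both strands. The first was TGACGTCA, the cAMP response element. The second was TATAAA, the core promoter box at which transcription complexes assemble. The third was AGATAA, a site of the zinc-finger factors that include Gata2 of the pars tuberalis list.
Cga: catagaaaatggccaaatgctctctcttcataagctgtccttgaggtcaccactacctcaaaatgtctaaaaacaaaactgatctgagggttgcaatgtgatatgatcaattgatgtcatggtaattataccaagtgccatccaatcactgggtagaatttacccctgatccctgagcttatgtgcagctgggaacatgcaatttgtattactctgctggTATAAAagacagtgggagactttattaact
Tshb: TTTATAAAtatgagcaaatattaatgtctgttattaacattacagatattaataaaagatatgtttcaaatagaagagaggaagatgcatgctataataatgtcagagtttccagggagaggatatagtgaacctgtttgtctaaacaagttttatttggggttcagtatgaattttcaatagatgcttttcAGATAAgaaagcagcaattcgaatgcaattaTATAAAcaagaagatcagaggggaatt
Dio2: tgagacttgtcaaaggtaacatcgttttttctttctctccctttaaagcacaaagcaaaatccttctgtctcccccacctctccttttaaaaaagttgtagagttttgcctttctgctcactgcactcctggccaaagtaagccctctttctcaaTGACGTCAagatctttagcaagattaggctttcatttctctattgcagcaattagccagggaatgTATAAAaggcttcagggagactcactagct
Th: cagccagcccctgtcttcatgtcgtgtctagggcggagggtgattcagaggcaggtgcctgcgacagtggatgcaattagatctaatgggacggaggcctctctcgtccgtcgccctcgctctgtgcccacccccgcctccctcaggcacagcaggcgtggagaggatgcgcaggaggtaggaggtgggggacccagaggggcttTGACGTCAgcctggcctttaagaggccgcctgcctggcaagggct
TGACGTCA began 95 bases before the start of Dio2 and 45 bases before that of Th, and 1.55% of 32851 mouse promoters hold it in a window of this length. TATAAA began 30 bases before the start of Cga and Dio2 and 27 before that of Tshb, and is held by 12.4% of promoters. Tshb also held TATAAA on both strands at its far end, in overlapping matches, and AGATAA from 58 bases before the start, a motif that 9.99% of promoters hold. A match describes these letters only.

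Markers of fenestrated vessels had 2 of 7 measured members called higher and 0 lower, and 5 higher at any fold, with a median of 0.60. Both median eminence arrays exceeded both arcuate arrays in all 7. Plvap, the diaphragm protein that defines fenestrated endothelium, measured 9.32 and 9.78 against 8.87 and 8.81, a difference of 0.71 with an adjusted p of 6.55e-05 that stayed under 2-fold. Emcn, the endothelial mucin endomucin, measured 8.54 and 8.88 against 7.58 and 7.32 (1.26, adjusted p = 8.29e-08). Kdr, the main receptor for vascular endothelial growth factor, differed by 0.54 (adjusted p = 0.000241). Esm1, a marker of growing vessel tips, was at 5.16 and 6.88 against 4.86 and 4.85. Its call rested on 1 array: without median eminence replicate 2 the difference was 0.31, with an adjusted p of 0.587, and with the 4 arrays fitted alone the adjusted p was 0.0781.

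Markers of the blood-brain barrier gave 0 calls at 2-fold in 17 measured members, with a median of 0.13. At any fold 3 were higher and 2 lower, and 7 had an unadjusted p under 0.05 in limma. The lower ones were Cldn5, the claudin of barrier tight junctions, at 8.47 and 8.29 against 8.98 and 9.10 (-0.66, adjusted p = 0.000145), and Slco1a4, an organic anion transporter, at 9.30 and 9.23 against 9.76 and 9.75 (-0.49, adjusted p = 0.00631). For both, the median eminence ranked 51 of 52 regions. The higher ones were Slco1c1, Ocln (0.45, adjusted p = 0.00749) and Foxq1 (0.41, adjusted p = 0.0154, with a second probe set at -0.02). General endothelial genes had a median of 0.19 and pericyte genes 0.10, with 0 calls at 2-fold among 11 and 12 members and 6 and 2 at an unadjusted p under 0.05. By adjusted p alone, 4 of the 11 endothelial genes passed as higher and 1 as lower. The 4 were Tek (0.72, adjusted p = 0.000848), Sox17 (0.52, adjusted p = 0.0281), Cdh5 (0.49, adjusted p = 0.00385) and Tie1 (0.48, adjusted p = 0.0221). Tek thus differed about as much as Plvap, while Egfl7 was lower (-0.31, adjusted p = 0.0157). Second probe sets of Sox17 and Cdh5 were at 0.001 and -0.22. Pecam1, an adhesion molecule of all endothelium, stood at 6.83 and 6.86 against 6.76 and 6.56. A difference between the vessel lists was not tested.

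Among arcuate neurons, the feeding list had 0 of 7 measured members called, 2 at an unadjusted p under 0.05 in limma, and a median of -0.07. Pomc, the precursor of melanocortins, measured 12.17 and 12.32 in the median eminence and 12.79 and 13.19 in the arcuate nucleus, a difference of -0.74 (adjusted p = 0.00259) that stayed under 2-fold. Cartpt, the CART peptide precursor, measured 12.27 and 12.24 against 12.48 and 12.73 and missed the threshold with an adjusted p of 0.261. Npy differed by 0.21 with an adjusted p of 0.541. Otp, a homeobox factor of neurosecretory neurons, was higher in the median eminence, at 12.07 and 12.12 against 11.51 and 11.55 (0.57, adjusted p = 0.0154), but its second probe set was at -0.34. Both regions ranked 1 and 2 of 52 for Npy and Otp. Arrays of the regions did not overlap for either gene, and for Npy the step was small beside its distance from the other hypothalamic regions.

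Genes of neuroendocrine dopamine and growth hormone-releasing neurons had the lowest median of the 31 lists. Of 8 measured, 5 were called lower and 0 higher, with a median of -1.02, and both median eminence arrays lay below both arcuate arrays in 7. Ghrh, growth hormone-releasing hormone, measured 8.35 and 8.05 in the median eminence and 9.56 and 9.97 in the arcuate nucleus, the highest of all 52 regions. It was 2.96-fold lower, a difference of -1.56 ± 0.13 with an adjusted p of 8.06e-14 in limma. Th, tyrosine hydroxylase, which makes the dopamine precursor, measured 8.98 and 8.70 against 9.88 and 9.81 (-1.003, adjusted p = 0.000907). Ddc, the next enzyme of dopamine synthesis, measured 8.75 and 8.78 against 9.89 and 10.16 (-1.26, adjusted p = 5.25e-05). Slc18a2, the vesicular monoamine transporter, measured 7.28 and 7.28 against 8.65 and 8.81 (-1.45, adjusted p = 0.00331). Gal, the neuropeptide galanin, measured 9.47 and 9.29 against 10.42 and 10.41 (-1.04, adjusted p = 7.22e-07).

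The arrays of the regions did not overlap for any of these 5, but only the call of Ghrh held in every alternative. With the 3' to 5' control ratios as covariates Slc18a2 was -0.33 (adjusted p = 0.799), Th -0.68 (adjusted p = 0.194) and Ddc -0.95 (adjusted p = 0.0922). Without median eminence replicate 2, Th was -0.86 and Gal -0.95, under the 2-fold limit, and without arcuate replicate 1 Th was -0.97. Without arcuate replicate 2, Slc18a2 was -1.37 with an adjusted p of 0.0534, and with hybridisation controls as a covariate it was -0.98 (adjusted p = 0.268) and Th -0.90. Ddc averaged -0.49 over its probe sets, the highest of which was at 0.29. Slc6a3, the dopamine transporter, measured 7.17 and 7.03 against 7.54 and 7.82 and differed by -0.58 (adjusted p = 0.000685), under 2-fold.

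The kisspeptin neuron list was lower without reaching the limit. Of 5 measured members, 0 were called at 2-fold, 4 were lower at any fold, the same 4 at an unadjusted p under 0.05, and the median was -0.67. Tac2, the neurokinin B precursor of arcuate kisspeptin neurons, measured 9.80 and 9.51 against 10.65 and 10.56 (-0.95, adjusted p = 0.00622). It passed 2-fold at -1.09 without median eminence replicate 1, and at -1.74 with hybridisation controls as a covariate (adjusted p = 0.000158). Esr1, the estrogen receptor alpha, measured 9.88 and 9.43 against 10.39 and 10.41 (-0.75, adjusted p = 0.0144), and Pgr, the progesterone receptor, 9.15 and 9.21 against 9.79 and 9.92 (-0.67, adjusted p = 2.58e-05). The 3 probe sets of Pgr ran from -0.67 to -0.08, with a mean of -0.29. Tacr3, the neurokinin B receptor, differed by 0.02 and missed the threshold.

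Of 6 measured releasing hormones and magnocellular peptides 3 were called lower, Ghrh, Avp and Oxt, and 0 higher, with a median of -0.95. Avp, vasopressin, measured 11.76 and 10.75 in the median eminence and 12.81 and 13.32 in the arcuate nucleus, 3.50-fold lower (-1.81 ± 0.21, adjusted p = 2.81e-09). Oxt, oxytocin, measured 12.09 and 11.28 against 12.94 and 13.12 (-1.35 ± 0.19, adjusted p = 2.26e-07), and was -0.94 without median eminence replicate 2. Both peptides are made by cells of the paraventricular and supraoptic nuclei, and the highest regions were the supraoptic nucleus for Avp, at 14.34, and the paraventricular nucleus for Oxt, at 14.55. The 2 median eminence arrays differed from each other by more than those of the arcuate nucleus for both peptides. Sst, somatostatin, measured 12.12 and 12.14 against 12.59 and 12.77, and missed the threshold with an adjusted p of 0.199. Trh and Crh, the releasing hormones for thyrotropin and corticotropin, differed by -0.17 and -0.10 and missed it too.

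Of 15 measured receptors through which hormones and transmitters reach these neurons, 0 were called higher and 2 lower, with a median of -0.08. At any fold 0 were higher and 5 lower, and 7 had an unadjusted p under 0.05 in limma. Cnr1, the cannabinoid receptor, measured 6.40 and 6.60 in the median eminence and 8.19 and 8.90 in the arcuate nucleus, 4.12-fold lower (-2.04 ± 0.24, adjusted p = 2.29e-09). Its second probe set was at -0.37, and the median eminence value lay below the median of all values. Htr2c, a serotonin receptor, measured 7.25 and 7.33 against 8.23 and 8.42 (-1.03, adjusted p = 0.0136). The call of Htr2c ended without median eminence replicate 1 (adjusted p = 0.0769), without its replicate 2 (0.0685) and without arcuate replicate 2 (0.137). It also ended with the control ratios (-0.64, adjusted p = 0.495) and the hybridisation controls (-1.21, adjusted p = 0.0701) as covariates, and was -0.78 over its probe sets. Npy1r, a receptor for neuropeptide Y, was -0.76 (adjusted p = 6.58e-05) with a second probe set at 0.09, while Npy2r measured 9.08 and 9.54 against 8.82 and 9.18 and missed the threshold. Receptors for leptin (Lepr, 0.26), ghrelin (Ghsr, 0.04) and growth hormone (Ghr, 0.42) missed it as well, and the median eminence ranked 1 of 52 for Ghsr, Ghr and Npy2r with the arcuate nucleus second.

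**Figure D3:**
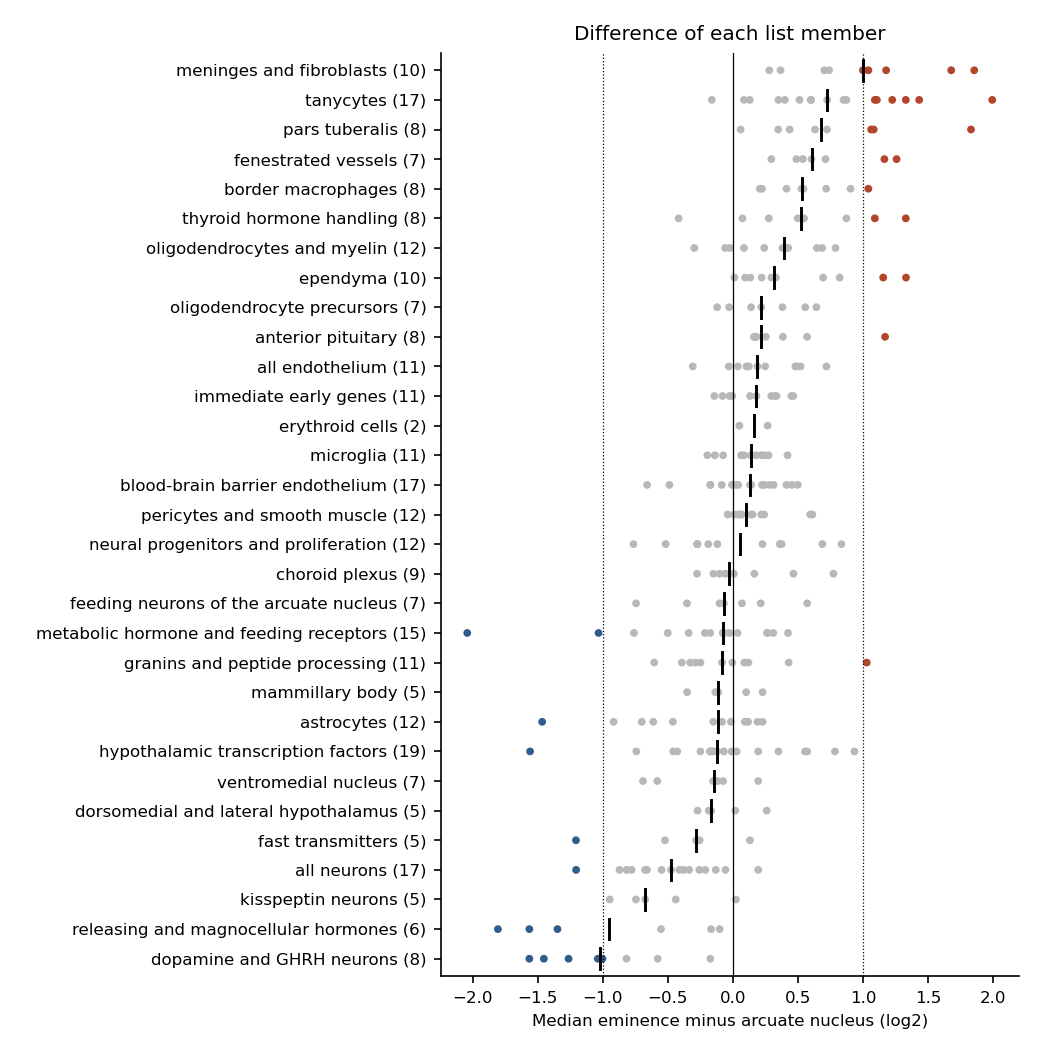
Median eminence minus arcuate difference (log2, horizontal) of each measured member of 31 gene lists, with the number of members in brackets, a black tick at the list median, coloured points for called genes and dotted lines at 2-fold. The meninges, tanycyte and pars tuberalis lists lie furthest to the right and the dopamine and growth hormone-releasing hormone (GHRH) list furthest to the left.

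Genes of all neurons were lower in the median eminence in 16 of 17 measured members, with a median of -0.48; 1 was called at 2-fold and 11 at any fold. The list averaged 10.56 and 10.54 in the median eminence and 11.00 and 11.10 in the arcuate nucleus, and these regions ranked 49 and 45 of 52. Nefl, the light neurofilament, measured 9.37 and 9.30 against 10.46 and 10.62 (-1.21, adjusted p = 2.26e-10). Syt1, a calcium sensor of synaptic vesicles, was -0.82 and Gap43, a growth-cone protein, -0.87. Syt1 passed 2-fold at -1.18 over its probe sets, and Gap43 at -1.04 without arcuate replicate 1. Syn1, encoding synapsin, was the exception at 0.19 and missed the threshold. This decrease moved together with that of the dopamine and kisspeptin lists, and its part in them was not tested.

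Of 5 genes of fast transmitters 1 was called lower and 0 higher, with a median of -0.28. Slc17a6, the glutamate transporter of hypothalamic neurons, measured 9.30 and 8.95 against 10.31 and 10.35 (-1.21, adjusted p = 0.000225). Gad1, which makes GABA, gave 11.74 and 11.70 against 11.89 and 12.07 and missed the threshold. Among 19 hypothalamic transcription factors, 1 was called lower, Dlx1, a factor of GABA neurons, at 7.72 and 7.41 against 9.16 and 9.09 (-1.56, adjusted p = 5.15e-09), and 0 higher. Six3 and Six6, homeobox factors of the ventral hypothalamus, differed by 0.78 (adjusted p = 0.00243) and 0.93 (adjusted p = 0.000335). The 3 probe sets of Six3 ran from -0.17 to 0.78, with a mean of 0.32. Six6 measured 7.84 and 9.17 in the median eminence, and its difference was 1.60 without median eminence replicate 1, 1.14 without arcuate replicate 2 and 1.27 with the control ratios as covariates. Of 11 genes of granins and peptide processing 1 was called higher and 0 lower, with a median of -0.08. Of their differences 7 were negative, and at any fold 1 gene was higher and 3 were lower. The gene called was Chga, chromogranin A, at 12.39 and 12.64 against 11.59 and 11.39 (1.03, adjusted p = 3.99e-08), with the pituitary highest at 13.07. That call ended at 0.90 without median eminence replicate 2 and at 0.93 without arcuate replicate 2, at 0.82 with the control ratios as covariates and at 0.99 after each array was centred on its median.

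Lists for neighbouring cell groups gave 0 calls: the ventromedial nucleus (7 members, median -0.14), the dorsomedial and lateral hypothalamus (5, -0.17) and the mammillary body (5, -0.11). Nr5a1, which defines the ventromedial nucleus, was dim in both punches, at 6.79 and 6.44 against 6.87 and 6.65. Pmch, the melanin-concentrating hormone precursor of the lateral hypothalamus, was at 7.48 and 7.41 against 7.82 and 7.45, with a median of 9.83 in the other hypothalamic regions. At an unadjusted p under 0.05 in limma and any fold, 2, 0 and 1 members of these lists differed.

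Glial lists other than tanycytes differed less. Of 12 astrocyte genes 0 were called higher and 1 lower, with a median of -0.12. At any fold 0 were higher and 4 lower, and 5 had an unadjusted p under 0.05 in limma. The 4 included Fgfr3, at -0.70, and Aldh1l1, at -0.46 with a second probe set at 0.15. Agt, angiotensinogen, measured 9.57 and 9.49 against 10.82 and 11.17 (-1.47, adjusted p = 3.59e-09), and was -0.96 with the 3' to 5' control ratios as covariates. Slc1a2, the main astrocyte glutamate transporter, measured 11.47 and 11.54 against 12.29 and 12.56 (-0.92, adjusted p = 4.19e-10), and was -1.05 without arcuate replicate 1. The 5 probe sets of Slc1a2 ran from -0.92 to -0.03, with a mean of -0.57. Gfap, the astrocyte filament, gave 10.58 and 10.70 against 10.32 and 10.59, and missed the threshold. The 12 oligodendrocyte and myelin genes had a median of 0.39 with 0 calls at 2-fold and 5 higher at any fold (7 at an unadjusted p under 0.05), among them Cldn11, a claudin of myelin (0.79, adjusted p = 0.0285). Oligodendrocyte precursors had a median of 0.22 with 0 of 7 called and 3 at an unadjusted p under 0.05. Microglia had a median of 0.14 with 0 of 11 called and 1 at that p.

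Genes of the meninges and their fibroblasts had the highest median of the 31 lists, 1.00, with 5 of 10 members called higher and 0 lower. Both median eminence arrays exceeded both arcuate arrays in all 10. Over the list, arrays averaged 10.07 and 10.30 in the median eminence and 9.33 and 9.08 in the arcuate nucleus, ranks 5 and 6 of 52. Relative to the mean of the 52 regions, the list stood at 2.10 in the median eminence and 1.12 in the arcuate nucleus. The 10 other hypothalamic regions ran from -0.99 to 2.36, so the highest of them exceeded the median eminence. Col3a1, a fibrillar collagen, measured 9.66 and 9.93 against 8.10 and 7.78 (1.85 ± 0.23, adjusted p = 9.99e-09), and its second probe set was at 0.52. Lum, the proteoglycan lumican, measured 9.76 and 10.54 against 8.67 and 8.29 (1.68, adjusted p = 1.27e-08). Dcn, decorin, was among the most abundant, at 12.99 and 13.01 against 12.06 and 11.86 (1.04, adjusted p = 0.00148). In the other hypothalamic regions its median was 8.40 and its highest mean 11.52. Islr (1.18) and Igf2, an insulin-like growth factor (1.00), completed the 5.

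Without arcuate replicate 2, calls in the meninges list fell to 2, as Dcn was at 0.94, Islr at 0.99 (adjusted p = 0.0614) and Igf2 at 0.91. Igf2 was also at 0.99 without median eminence replicate 1. With the 3' to 5' control ratios as covariates Igf2 was at 0.92 (adjusted p = 0.0525) and Islr at 1.23 (adjusted p = 0.0633). With hybridisation controls as a covariate they were at 0.90, 0.94 and 0.62, and none of these 3 was called. The means of the probe sets of Dcn and Igf2 were 0.58 and 0.59. Border macrophages had 1 of 8 called, H2-Aa, a class II antigen-presenting chain, at 9.76 and 9.74 against 8.75 and 8.67 (1.04, adjusted p = 8.49e-09), and a median of 0.53; it was 0.46 averaged over its probe sets, and just under 2-fold with either control covariate (0.97 and 1.00). Meningeal genes moved with the tanycyte, pars tuberalis and vessel genes, and their part in those differences was not tested. Choroid plexus genes had a median of -0.03 with 0 of 9 called (2 at an unadjusted p under 0.05), and Ttr, the plexus transthyretin, gave 9.05 and 9.82 against 9.76 and 9.67. The 2 erythroid genes measured had a median of 0.16, with 0 called at either p. Of 11 immediate early genes 0 were called, 3 at an unadjusted p under 0.05, with a median of 0.18.

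By size alone, the 12 leading genes of the median eminence included Scn7a, Cga, Col3a1 and Lum. The first was Bpifa1, a secreted protein of airway epithelium, at 11.57 and 9.57 in the median eminence and 8.24 and 5.96 in the arcuate nucleus. Its difference was 3.47 ± 0.30, or 11.08-fold, with an adjusted p of 1.36e-13 in limma. The arrays within each region lay farther apart than the nearest arrays of the regions, and the SE comes from all 52 regions. The 10 other hypothalamic regions lay between 5.47 and 5.84. Cdh1, epithelial cadherin, measured 7.52 and 8.39 against 5.77 and 6.05 (2.05), and Antxr2, an anthrax toxin receptor that binds matrix, 8.12 and 8.69 against 6.60 and 6.37 (1.92, adjusted p = 8.39e-17). For Cdh1 the highest of the other hypothalamic regions was at 8.82, above the median eminence mean of 7.96. The arcuate values of Bpifa1, Cdh1 and Antxr2 were all under 7.39, the median of all values, and their folds are uncertain in size.

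Thbd, thrombomodulin of vessel walls, measured 9.83 and 10.55 against 8.48 and 8.34 (1.78, adjusted p = 9.16e-07). The highest region for Thbd was the supraoptic nucleus, at 11.20. Abca8a, a lipid transporter, measured 11.96 and 12.39 against 10.44 and 10.40 (1.75, adjusted p = 1.01e-10), the highest of the 52 regions. The remaining leaders were Cbr2, a carbonyl reductase (1.77, with an arcuate mean of 6.55, also under the median of all values), Cyp1b1, a cytochrome P450 of vessel and fibroblast cells (1.64), and Cyp2f2, another cytochrome P450 (1.64). Cyp1b1 was 0.97 as the mean of its 3 probe sets. Cyp2f2 measured 9.73 and 10.09 against 8.39 and 8.16, with the other hypothalamic regions between 4.99 and 5.83 and the pituitary at 11.44. Among these the order was that of Cga, but the highest region for Cyp2f2 was the retina, at 11.94, and for Cga the pituitary.

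The 12 leading decreases included Cnr1, Avp, Ghrh, Dlx1, Agt, Slc18a2 and Oxt, described above. Itih3, a hyaluronan-binding inhibitor heavy chain, measured 10.46 and 10.18 against 12.05 and 12.30 (-1.85 ± 0.16, adjusted p = 2.37e-13). Tac1, the substance P precursor, measured 8.30 and 8.78 against 10.06 and 10.39 (-1.69, adjusted p = 7.92e-05); its second probe set was at 0.09, and with the 3' to 5' control ratios as covariates it was -1.33 with an adjusted p of 0.0854. Vsnl1, a neuronal calcium sensor, measured 9.70 and 9.53 against 11.09 and 11.11 (-1.49, adjusted p = 5.74e-10). Etnppl, an astrocyte phospholyase, was -1.35, and -0.78 over its probe sets. Tenm2, a synaptic adhesion protein, was -1.27, and its 4 probe sets ran from -1.56 to 0.06.

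The called genes were then placed among the 52 regions. These ranks use the same arrays that chose the genes, so they are a description with no test. Of the 112 higher genes, the median eminence was the highest of the 52 regions in 18, and in 9 of these the arcuate nucleus was second. Over all 18193 genes, it was highest in 226, with the arcuate nucleus second in 48 of them. The retina was highest in 62 and the pituitary in 9, against 2863 and 1375 of all genes. The pituitary count is thus near its share of all genes. In 101 of the 112, the arcuate nucleus itself exceeded the median of the 10 other hypothalamic regions, which it did in 8808 of all 18193 genes. Of the 43 lower genes, the median eminence ranked 40 or later in 24, against 4714 (25.9%) of all 18193 genes. The arcuate nucleus was highest in 1, Ghrh, and in 185 of all genes. In 38 of the 112 higher genes the arcuate mean lay below the median of all values, and in 16 both means did. Both means did so in 6197 of all genes.

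**Figure D4:**
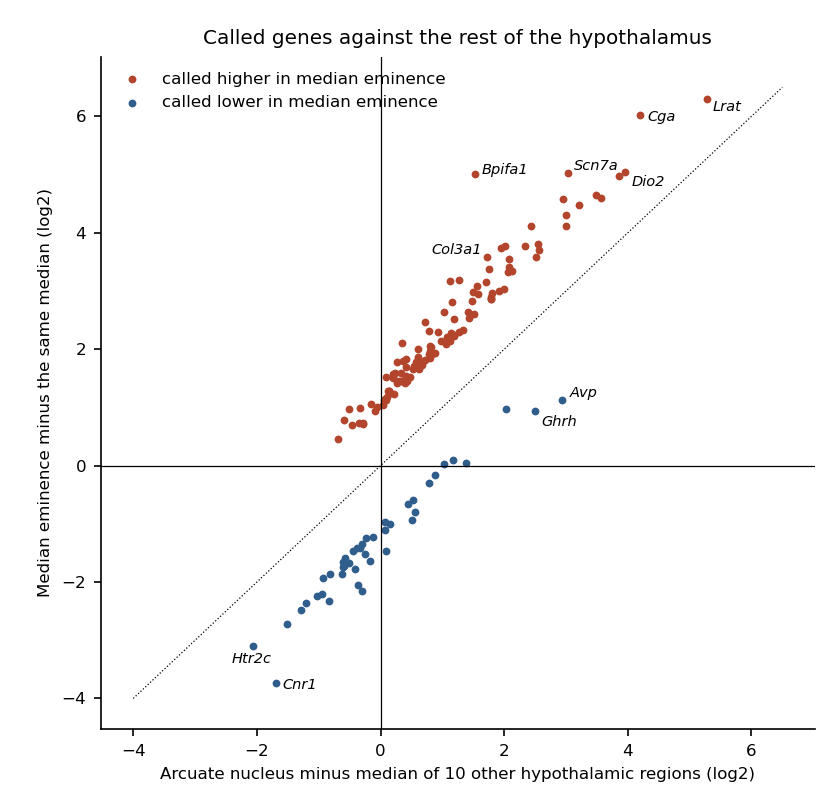
Each called gene is placed by its arcuate (horizontal) and median eminence (vertical) mean minus the median of 10 other hypothalamic regions (log2); the dotted line marks equal levels in both. Genes called higher lie above the line, and 101 of the 112 lie right of 0, with Lrat and Cga farthest; Cnr1 and Htr2c lie below the other regions in both.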

How the data were processed

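The authors deposited log2 values made with RMA, per the submitters' processing notes, and no version is given. Arrays were Affymetrix mouse arrays with biotin-labelled RNA. Of 45101 probe sets, 34945 had 1 gene symbol, 932 several, 9160 none and 64 were controls. Each of 18193 genes was represented by its probe set with the highest mean, and 9010 genes had several. A mean for each of 52 regions was fitted to all arrays in limma 3.58.1 under R 4.3.3 (52 residual degrees of freedom), and the median eminence was contrasted with the arcuate nucleus. P-values were two-sided and adjusted by Benjamini-Hochberg over all genes, and a call needed an adjusted p under 0.05 and 2-fold. The procedure was tested on simulated data. The genes named were members of 31 lists and the 12 largest called differences in each direction, given a mean in the higher region not under the overall median of the values, arrays that did not overlap and a symbol that is not provisional. The comparison and the lists were chosen with earlier results of these data known. Genes such as Agrp, Kiss1 and Gnrh1 are not analysed here. Sequences came from RefSeq.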

Additional observations from a re-analysis of the deposited data

How the results depend on the processing

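Against 112 genes higher and 43 lower, dropping the fold threshold gave 1546 and 1456, limma treat with a 1.2-fold threshold gave 290 and 182, and the 3' to 5' control ratios gave 170 higher and 43 lower. Leaving out 1 array gave 61 to 205 higher and 28 to 86 lower. Hybridisation controls as a covariate, added after seeing the data, gave 126 and 50, of which 76 and 27 were original calls. Centring (97 and 58), quantile normalization (116 and 54), no dim genes (96 and 42), the mean of probe sets (88 and 32), the 4 arrays alone (111 and 43), another variance model, array weights and other sets of regions stayed within 1.5 times. None of the 47 called genes among the lists and leading genes changed direction, and 84 of the 256 others, such as Tbx3 and Tacr3, changed sign under at least 1 alternative. The cause of lost calls was not tested. With the replicate number as a block (replicate block), the counts were 112 and 43 and no call changed. Deviations of same-numbered arrays of both regions correlated at 0.34 across genes, and the labels give them only a number in common. With 2 arrays per region, steps near 2-fold cannot be placed on either side of it.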

Other observations

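Some further genes were chosen after their values were seen, and no theme is drawn from them. Lrat, which esterifies retinol for storage, measured 11.90 and 11.99 in the median eminence and 10.69 and 11.16 in the arcuate nucleus, against 5.49 to 5.98 in the 10 other hypothalamic regions. It was called higher in the median eminence (1.02 ± 0.16, adjusted p = 1.44e-06 in limma), which was the highest of the 52 regions with the arcuate nucleus second. Aldh1a1, which makes retinoic acid, measured 11.36 and 11.66 against 10.07 and 10.41 (1.27, adjusted p = 4.91e-06). Rbp4, the retinol carrier, differed by 0.74 (adjusted p = 0.00125). Crabp1, a retinoic acid-binding protein, went the other way, at 8.11 and 7.90 against 8.80 and 8.70 (-0.75, adjusted p = 0.0109). Fzd5, a Wnt receptor, measured 11.83 and 12.20 against 10.89 and 10.89 (1.12, adjusted p = 0.000338), again with ranks 1 and 2, and its second probe set was at 0.39.

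Scgb3a1, a secretoglobin of airway epithelium, measured 9.38 and 9.57 in the median eminence and 8.21 and 7.89 in the arcuate nucleus (1.43 ± 0.09, adjusted p = 2.11e-18 in limma). The other hypothalamic regions lay between 7.74 and 8.08, and the median eminence was the highest of the 52 regions. Apoc3, an apolipoprotein, measured 9.02 and 9.51 against 8.14 and 7.87 (1.26), with the other hypothalamic regions between 5.26 and 6.13. Srebf1, a regulator of lipid synthesis, measured 11.39 and 11.79 against 10.45 and 10.42 (1.16, adjusted p = 1.51e-10). Insulin-like growth factor binding proteins Igfbp4 (1.63), Igfbp5 (1.04) and Igfbp7 (1.13) were called higher as well, and for all 3 other probe sets ran lower, down to 0.49, 0.13 and -0.07. Among the called decreases, Ntsr2, a neurotensin receptor, measured 10.70 and 10.40 against 11.62 and 11.73 (-1.12, adjusted p = 1.08e-11), and Pnoc, the nociceptin precursor, 7.59 and 7.41 against 8.41 and 8.81 (-1.11, adjusted p = 3.03e-07). The genes of this paragraph were also chosen after their values were seen. For the genes of both paragraphs, values without single arrays or with control covariates are not given. Several of their steps lie close to 2-fold, so these calls are not to be read as firmer than those described above.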
